A study of Mus musculus with 26 samples.

Results

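Single GFP-positive cells of the postnatal mouse retina were divided by whether the transcript of Otx2, a homeodomain transcription factor, reached the 90th percentile of the signals on the cell's own array. Of the 13 WT cells, 7 were Otx2-positive (cells 3, 6, 9, 10, 11, 12 and 13) and 6 were Otx2-negative (cells 1, 2, 4, 5, 7 and 8), out of 26 cells in the whole series. The other 13 cells, called N1-CKO, held 11 Otx2-positive and 2 Otx2-negative cells by the same rule. Every cell came from a pup homozygous for the floxed Notch1 allele on a C57BL/6 background, so the WT cells carried the floxed alleles as well. Retinas were electroporated in vivo at P0, the day of birth. WT retinas received a plasmid with GFP under the broadly active CAG promoter. N1-CKO retinas received Cre under CAG together with CALNL-GFP, a reporter that needs Cre before it makes GFP. At P3 the retinas were dissociated and fluorescent cells were picked by hand under a microscope. The RNA of each cell was reverse transcribed from its poly-A tail, amplified by PCR and hybridised to its own Affymetrix mouse array, so 1 array stands for 1 cell.

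Otx2 chose the classes, and its values are given only as a description. The Otx2 signal was between 2051 and 61679 in the Otx2-positive cells, with a median of 18314, and between 1.34 and 644 in the Otx2-negative cells. Just inside the limit, cell 3 had a signal of 2051 against its own threshold of 1478, and cell 6 had 3571 against 2251. Just outside it, cell 1 had 644 against 2233 and lay at the 82.9th percentile of its array. Cells 4 and 5 lay at the 81.5th and 78.8th, but their signals of 63.6 and 63.4 were far below their thresholds of 2120 and 1969. The other 5 Otx2-positive cells lay at or above the 98.1st percentile.

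Otx2 is needed for photoreceptor fate in the mouse retina. It activates Crx, a related homeodomain factor that drives many photoreceptor genes, and Prdm1, which holds newly made precursors on the photoreceptor rather than the bipolar path. Nrl then specifies rods. The early postnatal retina still holds dividing progenitors beside newborn rods, bipolar cells, amacrine cells and glia, and Otx2 RNA is found in photoreceptor precursors, in bipolar cells and in some late progenitors at their last division.

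The labels name no animal, litter or session for a cell, so each class was treated as 1 sample and no test between classes was made. Standard deviations (SD) describe the spread between cells, and exact Clopper-Pearson 95% intervals on shares of cells cover counting error only. Detection of any gene used the limit set for Otx2, the 90th percentile of the array of the cell in question. Differences are the mean log2 signal of the Otx2-positive cells minus that of the Otx2-negative cells, after signals below 25 were raised to 25, and 3 on this scale is 8-fold. The detection threshold was 414 to 2251 (median 926) in the Otx2-positive cells and 396 to 2409 (median 2044) in the Otx2-negative cells, so counts of members at 1 common threshold of 1252 stand beside those of the main lists. The median signal of an array was 20.2 to 72.5 (median 49.4) in the Otx2-positive cells and 9.27 to 43.6 (median 13.0) in the Otx2-negative cells. Its part in the differences of undetected genes was not tested. The 18S ribosomal RNA control signal split the WT cells into a high set, at 12106 to 44596, and a low set, at 75.3 to 2059. The high set held 4 of the 7 Otx2-positive cells (9, 10, 11 and 12) but only cell 8 of the Otx2-negative cells, so values within the low set, 3 against 5 cells, stand beside the main results. The part of this control in the results was not tested. The 3' over 5' ratio of the Gapdh probe sets, a sign of RNA and amplification quality, was 1.40 to 3.24 in Otx2-positive and 1.57 to 3.26 in Otx2-negative WT cells.

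Photoreceptor fate factors were higher in Otx2-positive cells more often than genes overall. Of the 18 measured members of this list, 5 were higher by at least 3 in the Otx2-positive cells and none was lower by 3, where 1.5% of all 18192 genes were higher and 2.0% lower by that much. These 5 were Crx, Prdm1, Nrl, Neurod4 and Neurod1. The list's median difference was 1.45, against 0.51 for all genes. Within the low 18S set it was 1.11, against 0.35 for all genes. By detection, 11 members were found in a larger and 2 in a smaller share of Otx2-positive than of Otx2-negative cells, against 21.6% and 25.4% of all genes. An Otx2-positive cell had 2 to 11 of the 18 members detected (median 8), and an Otx2-negative cell 2 to 6 (median 3). At the common threshold the counts were 3 to 9 (median 7) and 1 to 9 (median 4), so the classes overlapped over the whole range, with 9 members in Otx2-positive cell 6 and in Otx2-negative cell 1. Cell 3, the Otx2-positive cell nearest to its threshold, had 2 members detected, fewer than cell 1, the Otx2-negative cell nearest to its own, which had 6. Nr2e3 and Prdm13 were not analysed here.

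Crx, the factor that acts directly downstream of Otx2, had signals of 46 to 50282 (median 3474) in Otx2-positive cells and of 0.742 to 1939 (median 273) in Otx2-negative cells. It was detected in 6 of 7 Otx2-positive cells (85.7%, interval 42.1 to 99.6) and in 0 of 6 Otx2-negative cells, which allows a share of up to 45.9%. Cell 3 was the Otx2-positive cell without it. The groups overlapped, because cell 1 had a Crx signal of 1939, below its own threshold of 2233 yet above the common threshold, and cell 9 had 1936. Mean log2 signals were 12.10 ± 3.48 and 7.48 ± 2.45 (SD, 7 and 6 cells), a difference of 4.62, or 3.26 within the low 18S set. Set against the detection thresholds of the Otx2-negative arrays, the Otx2-positive mean was at least 2.82-fold higher. The second Crx probe set gave 5.32, with 5 against 0 cells detected. Detection in at least 4 Otx2-positive and no Otx2-negative cell was met by 0.357% of all genes.

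Prdm1 was bright in 4 Otx2-positive cells and was not detected in any Otx2-negative cell. Its signals were 63025, 23484, 11724 and 17192 in cells 9, 10, 12 and 13, and 87, 1399 and 10 in the Otx2-positive cells 3, 6 and 11. The Otx2-negative cells ran between 7.52 and 2377, with cell 2 the highest, just under its threshold of 2409. The difference was 4.62 (11.37 ± 4.34 and 6.75 ± 2.97, SD, 7 and 6 cells), with an Otx2-positive mean at least 1.70-fold above the Otx2-negative thresholds. At the common threshold the count was 5 Otx2-positive and 1 Otx2-negative cells.

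Nrl, the rod determinant, was detected in all 7 Otx2-positive cells and in Otx2-negative cells 1 and 4. Its signals were 4833 to 73201 (median 29895) in Otx2-positive and 1.62 to 5113 (median 183) in Otx2-negative cells. Only cell 6, at 4833, lay below the highest Otx2-negative cell. The difference of 6.16 (14.18 ± 1.64 and 8.02 ± 3.30, SD, 7 and 6 cells) was the fifth highest among the genes named here, and was 5.06 within the low 18S set.

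The bHLH factors Neurod4 and Neurod1, which act in photoreceptor and other neuronal differentiation, were detected in 6 of 7 Otx2-positive and 3 of 6 Otx2-negative cells each. Neurod4 had signals of 160 to 69139 (median 15041) in Otx2-positive cells and of 7.40 to 6643 (median 2249) in Otx2-negative cells. Cell 3 alone was low among the Otx2-positive cells, and the other 6 lay above every Otx2-negative cell. The Neurod4 difference was 3.94, and a second probe set gave 3.88, but within the low 18S set it was 1.53. Neurod1 had signals of 977 to 73398 (median 7895) in Otx2-positive and 13.1 to 10916 (median 3166) in Otx2-negative cells. Its difference was 3.76, and 1.81 within the low 18S set.

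The remaining detected members differed by less than 3. The homeobox gene Rax, which acts in progenitors and later in photoreceptors, was detected in 5 Otx2-positive and 3 Otx2-negative cells (difference 2.07). Samd11, a partner in silencing non-photoreceptor genes, was detected in 4 and 2 cells (1.51), as was the transcription factor Mef2d (1.42). Rorb, a nuclear receptor upstream of Nrl, was detected in 3 cells of each class (-1.03), and Casz1, a zinc finger factor of late progenitors and rods, in 1 of each (-0.19).

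**Figure D1:**
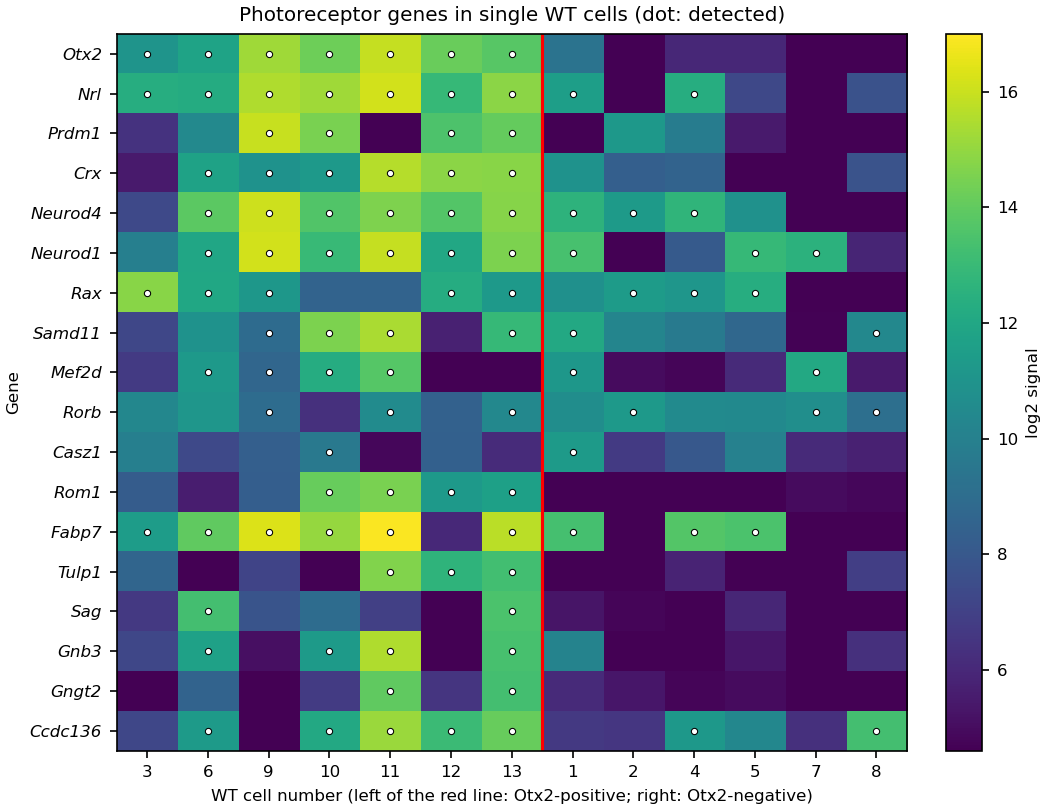
Heat map of log2 signal (colour scale, floor at a signal of 25) for Otx2 and 17 genes of the photoreceptor lists (rows) in the 13 WT cells (columns), with Otx2-positive cells left of the red line and Otx2-negative cells right of it. A white dot marks detection. Crx has dots in 6 Otx2-positive cells and in none of the Otx2-negative cells, and Nrl has dots in 7 and 2.

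Otx2 and Crx bind a DNA core that reads TAATCC, and the promoter windows of the photoreceptor genes were searched for it. Windows ran from 250 bases before to 50 bases after the annotated start site, 300 bases in all, taken from RefSeq on GRCm38.p6. TAATCC was searched on both strands, so that GGATTA counts as well, and overlap with other motifs was ignored. It stood in the window of 8.14% of the 27025 genes with a window. Of the 74 measured genes of the photoreceptor factor, rod and cone lists, 57 had a window and 21 of these (36.8%) held the motif. Of the 15 that were higher by at least 3 in Otx2-positive cells, 13 had a window and 4 held it (30.8%), namely Crx, Rbp3, Sag and Unc119. This share was not above that of the whole lists. A match describes the letters in the window and shows no binding in these cells. The windows of Crx (chr7:15879906-15880205, minus strand), Sag (chr1:87803430-87803729, plus strand) and Rbp3 (chr14:33953753-33954052, plus strand) are printed 5′ to 3′ because they belong to listed genes that were higher by at least 3. Capitals mark the motif, and the start site is base 251.
Crx: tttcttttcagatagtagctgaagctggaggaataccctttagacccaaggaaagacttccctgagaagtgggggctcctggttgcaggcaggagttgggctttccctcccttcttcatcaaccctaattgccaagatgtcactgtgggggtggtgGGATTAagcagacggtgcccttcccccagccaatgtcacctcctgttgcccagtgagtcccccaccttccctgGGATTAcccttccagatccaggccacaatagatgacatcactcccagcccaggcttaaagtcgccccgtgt
Sag: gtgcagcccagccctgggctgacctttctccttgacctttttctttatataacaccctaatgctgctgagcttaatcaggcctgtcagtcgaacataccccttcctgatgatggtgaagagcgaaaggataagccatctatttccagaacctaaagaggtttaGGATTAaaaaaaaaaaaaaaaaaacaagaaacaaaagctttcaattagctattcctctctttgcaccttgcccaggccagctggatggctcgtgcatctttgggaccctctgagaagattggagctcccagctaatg
Rbp3: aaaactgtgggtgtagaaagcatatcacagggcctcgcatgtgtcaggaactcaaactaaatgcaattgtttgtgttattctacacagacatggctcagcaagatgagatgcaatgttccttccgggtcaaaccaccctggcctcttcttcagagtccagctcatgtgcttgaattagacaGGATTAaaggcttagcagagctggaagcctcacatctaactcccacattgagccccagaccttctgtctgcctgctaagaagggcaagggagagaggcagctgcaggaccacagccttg
The Crx window held the motif at bases 157 and 230, the Sag window at base 164 and the Rbp3 window at base 182, each time as GGATTA.

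Genes for rod and general photoreceptor structure were detected sparsely, but more of them in Otx2-positive cells. Of 45 measured members, 8 were higher by at least 3 and none was lower by 3, against 1.5% and 2.0% of all genes. The list's median difference was 0.96, and 0.84 within the low 18S set. Otx2-positive cells had 2 to 14 members detected (median 7) and Otx2-negative cells 1 to 7 (median 3.5), with medians of 6 and 4 at the common threshold. No member was detected in any WT cell for 26 of the 45, among them Gnat1, the rod transducin alpha subunit, and Rcvrn, the calcium sensor recoverin. Lists of cells outside the neural retina, with few members detected, had median differences between 0.48 (lens and red cells) and 1.11 (pigment epithelium).

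Rom1, a structural protein of outer segment discs, had signals of 17975, 23232, 2465 and 3220 in Otx2-positive cells 10, 11, 12 and 13. The other 3 Otx2-positive cells had 48.6 to 314, and the Otx2-negative cells 1.29 to 31.6. The Rom1 difference was 5.80, although detection was limited to 4 Otx2-positive cells. Tulp1, a photoreceptor trafficking protein, was detected in 3 Otx2-positive cells (11, 12 and 13) and in no Otx2-negative cell, with signals of up to 26077 in Otx2-positive cells and of up to 119 in Otx2-negative cells (difference 4.16). Sag, which encodes arrestin, was detected in cells 6 and 13, at 9905 and 11407, and its highest Otx2-negative signal was 60.3 (difference 3.84). Rbp3, a retinoid-binding protein of the space around photoreceptors, was detected in 4 Otx2-positive cells and 1 Otx2-negative cell (difference 3.52, but 0.74 within the low 18S set). Fabp7, a fatty acid binding protein also made by progenitors and glia, was detected in 6 Otx2-positive and 3 Otx2-negative cells (difference 4.57). Unc119, Prom1 and Egflam were the other 3 members past the limit, at 3.13, 3.37 and 3.37. Prom1 differed by -0.59 within the low 18S set.

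Cone genes followed the same direction with few detected members. Of 13 measured, 2 were higher by at least 3 and none was lower by 3, against 1.5% and 2.0% of all genes. Their median difference was 1.25. That median was near the 1.11 of the pigment epithelium list. Within the low 18S set the medians were 1.05 for cone and 0.35 for pigment epithelium genes. Of the 13 cone genes, 8 were not detected in any WT cell. Otx2-positive cells had 0 to 4 members detected (median 2) and Otx2-negative cells 0 or 1. Gnb3, the cone transducin beta subunit that is also used by ON bipolar cells, was detected in Otx2-positive cells 6, 10, 11 and 13 at 3324, 2610, 47414 and 10657. Its Otx2-negative signals were at most 1149, in cell 1, and the difference was 3.89. Gngt2, the cone transducin gamma subunit, was detected in cells 11 and 13 only (difference 3.27). Ccdc136, detected in 5 Otx2-positive and 2 Otx2-negative cells, differed by 2.02. The cone opsins Opn1sw and Opn1mw were not detected in any WT cell.

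Among markers of bipolar and ganglion cells no gene passed the size limit. None of the 20 measured bipolar genes differed by 3, and their median difference of 0.63 lay near that of all genes. Otx2-positive cells had 0 to 2 bipolar members detected and Otx2-negative cells 0 or 1. Pcp2, a bipolar cell protein, was detected in Otx2-positive cells 10 and 11 and in no Otx2-negative cell (difference 2.66), and the bipolar kinase Prkca also in 2 and 0 cells (0.43). The bipolar factors Vsx1 and Isl1 were not detected in any WT cell. Ganglion cell genes had a median difference of 0.78 with no member past the limit, led by Isl2 at 2.34 and Ebf3 at 2.08, each detected in 2 Otx2-positive cells and no Otx2-negative cell.

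Amacrine and horizontal cell genes numbered 3 to 7 per Otx2-positive cell (median 5) and 4 to 10 per Otx2-negative cell (median 4.5). Their median difference was 0.49 over 31 measured genes. Of these, 2 were higher by at least 3, Calb2 and Meis2, where 1.5% of all genes were. Calb2, the calcium buffer calretinin, was detected in Otx2-positive cells 3, 6 and 10 at 3077, 5853 and 7620, against at most 27.5 in Otx2-negative cells (difference 4.18). Meis2, an amacrine transcription factor, was detected in 5 and 1 cells (3.37, and 0.73 within the low 18S set). Tfap2a, an amacrine determinant, was detected in no Otx2-positive cell and in 2 Otx2-negative cells, with 13739 in cell 7 (difference -2.06). Pax6, shared by progenitors and amacrine cells, was detected in 5 of 7 Otx2-positive and all 6 Otx2-negative cells. Its signals were 17.7 to 15132 (median 5279) and 8182 to 15333 (median 12647), and Otx2-positive cells 9 and 10 had the lowest values, 17.7 and 197. The Pax6 difference was -2.78, but -0.22 within the low 18S set, and another Pax6 probe set, detected in 3 Otx2-positive and no Otx2-negative cell, differed by 2.77.

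General neuronal and synaptic genes had 1 to 9 members detected per Otx2-positive cell (median 7) and 2 to 11 per Otx2-negative cell (median 4.5). At the common threshold the order of the medians turned, with 5 in Otx2-positive and 5.5 in Otx2-negative cells. Dcx, a microtubule protein of young neurons, was the member past the limit, detected in Otx2-positive cells 3, 10 and 13 at 2280, 5724 and 3743, and at most at 11.6 in Otx2-negative cells (difference 4.62, and 1.68 as the mean of its probe sets). The dendritic protein Map2 was detected in 2 Otx2-positive and 4 Otx2-negative cells (-2.44), and the growth cone protein Gap43 in 3 and 1 cells (2.59).

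Markers of cells outside the neural retina were at or near 0 in both classes. At most 1 of 8 microglia genes, 1 of 3 astrocyte genes and 1 of 6 lens and red cell genes was detected in any WT cell. Among 11 pigment epithelium genes, only Rlbp1, which Müller glia and late progenitors also express, was detected, in 5 Otx2-positive and 3 Otx2-negative cells, and Rpe65, Tyr and Mitf were detected in none. Among 9 vascular genes, Kdr was detected in 4 and 5 cells, Pdgfrb in 0 and 1, and the endothelial markers Pecam1 and Cdh5 in none. Their mean log2 signals per cell averaged 6.02 ± 0.66 and 5.92 ± 0.68 for the vascular list and 6.15 ± 0.49 and 5.22 ± 0.45 for the pigment epithelium list (SD, 7 Otx2-positive and 6 Otx2-negative cells), near the floor of 4.64.

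**Figure D2:**
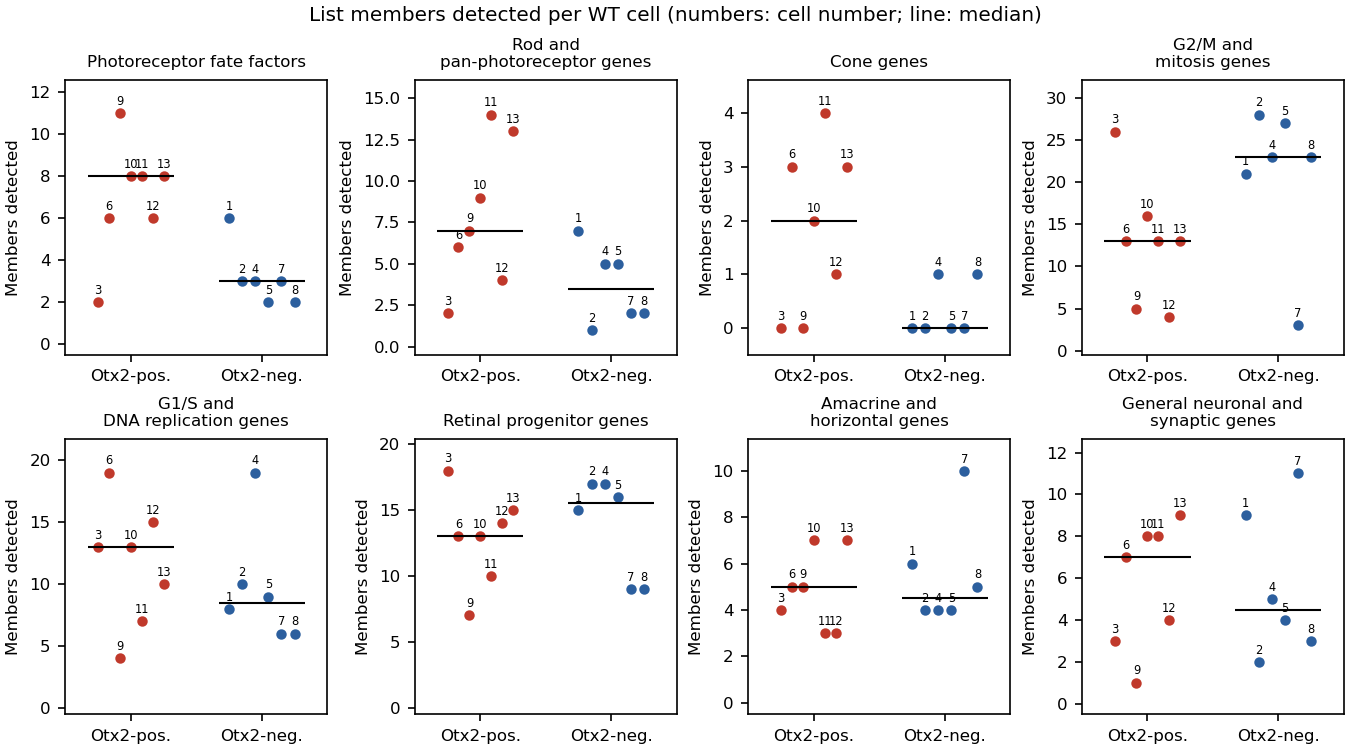
Number of list members detected (y axis) in each WT cell, with Otx2-positive cells in red on the left and Otx2-negative cells in blue on the right of each of 8 panels, labelled by cell number, and the class median as a line. Photoreceptor fate factors have medians of 8 and 3, and G2/M genes medians of 13 and 23, with cell 3 and cell 7 lying on the far side of their classes.

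Mitotic genes ran the other way, and of the lists examined theirs had the most members that were lower in Otx2-positive cells. These genes encode the cyclins, kinases and spindle proteins that cells use from G2 into mitosis. Of 31 measured members, 6 were lower by at least 3 and none was higher by 3, against 2.0% and 1.5% of all genes. Of the 31, 28 were below 0, where 30.3% of all genes were below 0 and 69.5% above. The median difference was -2.32. It was -0.92 in the low 18S set alone, -1.20 when probe sets were averaged, -1.11 with the 80th percentile as the Otx2 limit and -4.10 without the 2 cells of Gapdh ratio above 3. Those 2 cells were Otx2-positive cell 3 (ratio 3.24) and Otx2-negative cell 7 (3.26). By detection, 25 members were found in a smaller and 4 in a larger share of Otx2-positive cells, against 25.4% and 21.6% of all genes. Otx2-positive cells had 4 to 26 members detected (median 13) and Otx2-negative cells 3 to 28 (median 23), with medians of 12 and 23.5 at the common threshold. The classes were not uniform. Otx2-positive cell 3 had 26 members detected, and Otx2-negative cell 7 had 3. The other 6 Otx2-positive cells had 4 to 16 and the other 5 Otx2-negative cells 21 to 28. Without the cells within 4-fold of their Otx2 threshold, which are cells 1, 3 and 6, the median difference was -3.06.

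Ccnb2, a mitotic cyclin, was detected in 1 of 7 Otx2-positive cells and 5 of 6 Otx2-negative cells. Its signal was 9070 in cell 3 and 4.10 to 82.2 in the other 6 Otx2-positive cells, against 2.26 in cell 7 and 3750 to 22349 in the other 5 Otx2-negative cells. The difference was -5.43 (6.10 ± 3.17 and 11.53 ± 3.49, SD, 7 and 6 cells). Cdc20, the activator of the anaphase-promoting complex, had signals of 3.21 to 29583 (median 3784) in Otx2-positive cells and of 6380 to 81885 (median 16556) in Otx2-negative cells. It was detected in 4 of 7 and 6 of 6 cells, with Otx2-positive cells 9, 12 and 13 at 30.8 or below (difference -4.49). Bub1, a kinase of the spindle checkpoint, and Ccnf, cyclin F, were each detected in 1 Otx2-positive cell, which was cell 3, and in 4 Otx2-negative cells, with differences of -3.59 and -3.35. Ccna2, cyclin A, differed by -3.12 and Tacc3, a spindle protein, by -3.04. Some members differed little or were higher. Mki67, the proliferation marker, was detected in 6 of 7 Otx2-positive and 5 of 6 Otx2-negative cells (difference -0.24), Cdk1 in 4 and 3 cells (-0.04), and Ube2c in 6 and 4 cells (2.31).

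Promoters of many G2/M genes carry the sequences TTTGAA, known as the cell cycle genes homology region, and CCAAT, bound by the factor NF-Y. The same 300-base windows were searched for both on either strand, where they read TTCAAA and ATTGG, and each was counted whether or not it overlapped another motif. The pair stood in a window of 7.97% of the 27025 genes and of 20 of the 27 G2/M genes with a window (74.1%). TTTGAA alone stood in a window of 20.2% of all these genes and of 77.8% of the G2/M genes, and CCAAT in 41.1% and 85.2%. Of the 6 G2/M genes that were lower by at least 3, 5 had a window and 3 held the pair, which were Cdc20, Ccnb2 and Ccnf. The windows of Cdc20 (chr4:118437294-118437593, minus strand) and Ccnb2 (chr9:70421505-70421804, minus strand) are shown because these genes had the largest differences within the G2/M list, with both motifs in capitals.
Cdc20: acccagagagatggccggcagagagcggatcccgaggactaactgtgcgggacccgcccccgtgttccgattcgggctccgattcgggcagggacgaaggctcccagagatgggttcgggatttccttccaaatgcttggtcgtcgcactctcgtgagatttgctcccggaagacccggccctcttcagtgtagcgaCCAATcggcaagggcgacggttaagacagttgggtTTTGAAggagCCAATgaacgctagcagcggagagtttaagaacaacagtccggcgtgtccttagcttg
Ccnb2: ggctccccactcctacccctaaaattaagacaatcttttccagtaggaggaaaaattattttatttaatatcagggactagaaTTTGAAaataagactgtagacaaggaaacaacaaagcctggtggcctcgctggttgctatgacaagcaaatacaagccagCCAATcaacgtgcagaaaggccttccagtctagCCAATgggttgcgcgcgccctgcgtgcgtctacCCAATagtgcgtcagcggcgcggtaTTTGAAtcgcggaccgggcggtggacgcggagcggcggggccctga
The TTTGAA nearest to the start site began at base 233 in Cdc20 and at base 255 in Ccnb2.

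DNA replication genes showed no common direction. Of 27 measured G1/S members, 3 were higher by at least 3 and 1 was lower by 3, against 1.5% and 2.0% of all genes. Their median difference was 0.51, as for all genes. It ran between -0.38, without cell 7, and 0.95, without cell 4, when 1 cell was left out, and was 1.35 and -0.28 with the 80th and 95th percentile as the Otx2 limit. Otx2-positive cells had 4 to 19 members detected (median 13) and Otx2-negative cells 6 to 19 (median 8.5), with medians of 11 and 10 at the common threshold. Pcna, the sliding clamp of replication, had signals of 150 to 28313 (median 23434) in Otx2-positive cells and of 14.2 to 16048 (median 3214) in Otx2-negative cells. It was detected in 6 and 4 cells, and cell 9 was the Otx2-positive cell without it (difference 3.06). Subunits of the replicative helicase went in opposite directions. Mcm2 was detected in 4 Otx2-positive cells and 1 Otx2-negative cell (difference 3.84), Mcm4 in 5 and 2 cells (3.06), and Mcm7 in 3 and 5 cells (-3.64). Among 18 genes of cell cycle exit, 2 were higher by at least 3, where 1.5% of all genes were. Btg2, an antiproliferative gene that marks progenitors at a neuron-producing division, was detected in 6 of 7 Otx2-positive cells and in 1 of 6 Otx2-negative cells. Its signals were 263 to 44230 (median 10112) and 0.745 to 13847 (median 691), a difference of 4.29. It was 3.88 within the low 18S set but 0.18 within the high one, where cell 8 had the highest Otx2-negative signal. Mxd4, an antagonist of Myc, was detected in 2 and 0 cells (3.29). The inhibitor genes Cdkn2d and Cdkn2c differed by -2.06 and -1.25, though by -0.02 and 0.75 within the low 18S set, and Cdkn1b, which encodes p27, was detected in 6 and 5 cells (-0.74).

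Progenitor genes were found in both classes. Otx2-positive cells had 7 to 18 of 25 measured members detected (median 13) and Otx2-negative cells 9 to 17 (median 15.5), with medians of 13 and 18 at the common threshold. The median difference was 0.09. Ccnd1, the progenitor cyclin, was detected in every WT cell. The members lower by at least 3 were Fgf15, a secreted factor of progenitors, detected in 2 and 5 cells (-3.52), and Zfp36l2, an mRNA decay factor, detected in 1 and 4 cells (-3.41). Both were low in cell 8, the Otx2-negative cell of the high 18S set, and within that set, 4 cells against 1, their differences were 3.38 and 1.37. Car2, carbonic anhydrase 2, was detected in 5 and 6 cells (-2.14). Genes of Müller glia, which share much of the progenitor program, had a median difference of 0.48 with no member past the limit. Glul, glutamine synthetase, differed by -2.28, but by 0.24 within the low 18S set. Sox9 differed by 1.94. Dbi, an acyl-CoA binding protein detected in 7 and 5 cells, differed by 2.26, and by 0.53 without cell 7.

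Among 19 measured Notch receptors and effectors, 2 were lower by at least 3 and none was higher by 3, with a median of 0.48. Of all genes, 2.0% were lower and 1.5% higher by that much. Dtx1, a Deltex regulator of Notch, was detected in 3 of 7 Otx2-positive and 6 of 6 Otx2-negative cells. Its signals were 7.62 to 6625 (median 138) in Otx2-positive cells and 1149 to 10941 (median 4732) in Otx2-negative cells, with Otx2-positive cells 3, 6 and 12 inside the Otx2-negative range (difference -3.82). Dtx4 was detected in 2 and 4 cells (-3.21, and -1.55 within the low 18S set), and in 2 and 6 cells at the common threshold. The other Dtx4 probe set, detected in 2 and 0 cells, differed by 1.12. As means of their probe sets, Dtx1 and Dtx4 differed by -1.48 and -1.05. Notch1, the floxed gene that WT cells keep, was detected in 6 and 4 cells (2.63, and 1.20 within the low 18S set). Its other probe set, detected in 2 and 1 cells, differed by -0.51, and without cell 7 the difference was 1.45. The target gene Hey1 was detected in 5 and 1 cells (2.42), and Hes1 in 3 cells of each class (0.06). Of the ligand and proneural list, Neurod1 and Neurod4 alone passed the limit. Mfng, which modifies Notch receptors, was detected in 1 and 3 cells (-0.76), and Neurog2 in 1 and 2 cells (1.06).

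Across all 18192 genes, 272 were higher and 363 lower by at least 3 in the Otx2-positive cells. Centring on the median of all genes, a step chosen after seeing the data, made this 147 and 668, and quantile normalization made it 179 and 418. No gene was detected in every Otx2-positive cell and no Otx2-negative cell, and Avl9, whose yeast relative acts in late secretory transport, was detected in no Otx2-positive and every Otx2-negative cell (0.0055% of genes). Its signals were 3.53 to 106 and 3153 to 9545 (difference -7.07). Set against the detection thresholds of the Otx2-positive arrays, Avl9 was at least 5.33-fold lower in Otx2-positive cells. The mean of all Avl9 probe sets gave -1.33, because the other 3 were not detected in any WT cell.

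The 12 highest differences among genes detected in at least 4 WT cells lay between 5.49 and 7.10. They were those of Dlc1, Ube3a, H2-Ke6, Chgb, Nrl, Tm2d3, Tmem176b, Rom1, Grina, Insm2, Npepps and Pnkd. Dlc1, a GTPase-activating protein, had signals of 4857 to 39803 in 5 Otx2-positive cells, of 368 and 8.21 in cells 6 and 3, and of at most 12.8 in Otx2-negative cells. Its difference was 7.10, and the Otx2-positive mean lay at least 2.19-fold above the Otx2-negative thresholds. Ube3a, a ubiquitin ligase, was detected in 6 and 0 cells, with signals of 333 to 28796 and 0.934 to 244 (6.75, and 1.71 as the mean of its probe sets). Chgb, a chromogranin of secretory granules, was detected in 5 Otx2-positive cells and in Otx2-negative cell 7 (6.23), and Insm2, a zinc finger factor, in 5 and 0 cells (5.67).

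The 12 lowest differences lay between -7.07 and -5.43, and were those of Avl9, Kif5c, Armcx4, Cdc25c, Srp68, Nudt5, Elof1, Tmed7, Sun2, Aspm, Ccnb2 and Fut8. Kif5c, a kinesin motor of neurons, was detected in Otx2-positive cell 6 at 10039 and at 121 or less in the other 6, against 4307 to 22852 in Otx2-negative cells (difference -6.89, and -1.23 as the mean of its probe sets). Cdc25c, the phosphatase that starts mitosis, and Aspm, a spindle pole protein, belong to the mitotic program although the list did not hold them. Detection in no Otx2-positive and at least 4 Otx2-negative cells was met by 0.192% of all genes. Cdc25c was detected in 0 and 4 cells (difference -6.05, at least 3.11-fold lower), with 1326 in cell 3 and at most 15.7 in the other Otx2-positive cells. Aspm was detected in 0 and 5 cells, with signals of 4.51 to 166 in Otx2-positive cells and 3190 to 21396 in the Otx2-negative cells other than cell 7, which had 0.473 (difference -5.46, at least 3.04-fold lower, but -0.63 as the mean of its probe sets). These genes were chosen for their size in the same cells. Within the low 18S set the high ones ran between 2.26 and 8.53 and the low ones between -7.06 and -2.13.

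**Figure D3:**
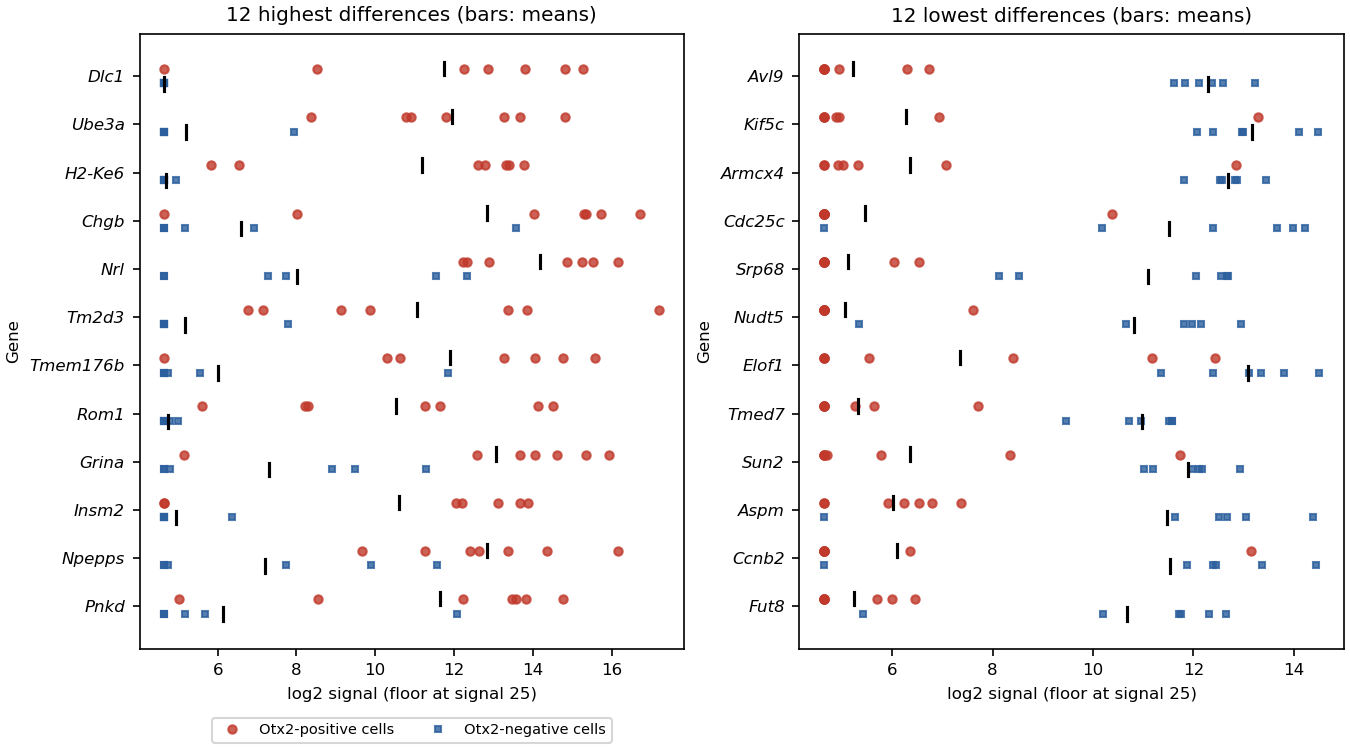
Log2 signal (x axis, floor at a signal of 25) of the genes with the 12 highest (left) and 12 lowest (right) differences in each WT cell, with Otx2-positive cells as red circles above Otx2-negative cells as blue squares and the class means as black bars. Dlc1 has Otx2-positive signals of up to 39803 against at most 12.8 in Otx2-negative cells, and Avl9 has no Otx2-positive signal above 106.

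Single cells differed within each class. Cell 3 was Otx2-positive by a signal of 2051 and had Nrl and Rax but not Crx, Prdm1, Neurod1 or Neurod4, with 26 G2/M and 18 progenitor members detected. Cell 6, the next nearest to its threshold, had Crx, Nrl, Neurod1 and Neurod4 with 13 G2/M members. Cell 9 had 11 photoreceptor factors detected, or 6 at the common threshold, and 5 G2/M members, and cell 12 had 6 and 4. Cells 10, 11 and 13 had 8 photoreceptor factors each and 16, 13 and 13 G2/M members. Among the Otx2-negative cells, cells 2, 4, 5 and 8 had 2 or 3 photoreceptor factors with 23 to 28 G2/M members. Cell 7 had 10 amacrine and horizontal, 11 neuronal and 3 G2/M members. Cell 1 had 6 photoreceptor factors, or 9 at the common threshold, among them Nrl, Neurod1 and Neurod4, with 21 G2/M members.

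The N1-CKO cells did not choose the classes of WT cells, and the same split was made in them. It rests on 11 Otx2-positive against 2 Otx2-negative cells, and the Otx2-negative cells 12 and 13 had Gapdh ratios of 30.3 and 3.43, against 1.46 to 245 in Otx2-positive N1-CKO cells. The low 18S set held 6 of the 11 Otx2-positive and both Otx2-negative cells. Notch1 RNA was detected in 8 of the 11 and 0 of the 2 cells, and whether its probe set lies in the deleted part was not examined. Crx was detected in 10 of 11 Otx2-positive and 0 of 2 Otx2-negative N1-CKO cells, with a difference of 8.92. Prdm1 was detected in 10 and 0 cells (8.01), Nrl in 9 and 0 (7.52) and Neurod4 in 9 and 0 (9.08), whereas Neurod1 was detected in all 13 (0.76). Of the 18 photoreceptor factors, 7 were higher by at least 3, where 4.97% of all genes were higher and 5.07% lower in this comparison. The list's median was 1.83, against 0.65 for all genes. This was not particular to photoreceptor factors. Progenitor genes had a median of 1.935 with 7 of 25 higher by at least 3, and proneural genes one of 2.20 with 5 of 13. Amacrine and horizontal genes had a median of 0.23 and neuronal genes one of -0.17. Btg2 was detected in 11 and 0 cells (8.85), and Gnb3 in 9 and 0 (6.94).

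The mitotic genes ran the other way in N1-CKO cells. Their median difference was 1.83, with 5 of 31 higher by at least 3 and none lower by 3. Otx2-positive N1-CKO cells had 1 to 17 members detected (median 3), and the 2 Otx2-negative cells had 0 and 2. The Otx2-negative N1-CKO cells had 7 and 11 amacrine and horizontal and 9 and 11 neuronal members detected. The Otx2-positive N1-CKO cells overlapped with them, at 2 to 11 (median 4) and 5 to 14 (median 8). Of the 12 genes with the highest WT differences, 9 had the same sign in N1-CKO cells and 5 were past the limit, where 75.1% of all genes were above 0. Of the 12 with the lowest, 7 had the same sign and 5 were past the limit, where 24.8% of all genes were below 0. Chgb, Tmem176b and Npepps changed sign among the high genes, at -2.01, -1.64 and -0.33. Cdc25c, Tmed7, Aspm, Ccnb2 and Fut8 changed sign among the low genes, at 0.81 to 2.09.

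**Figure D4:**
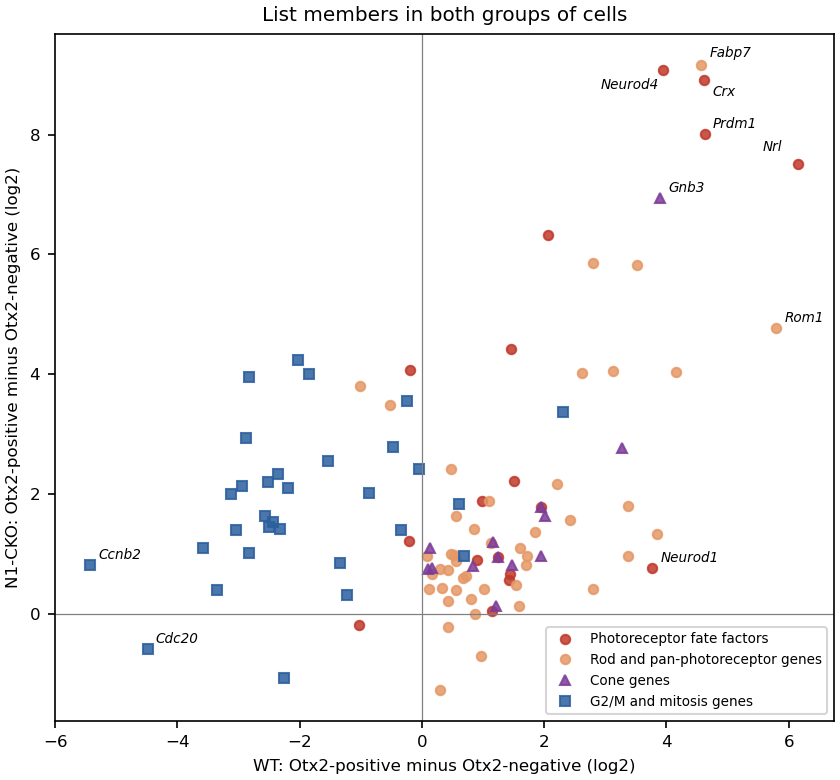
Difference in log2 signal, Otx2-positive minus Otx2-negative, in WT cells (x axis, 7 against 6 cells) and in N1-CKO cells (y axis, 11 against 2 cells) for every measured member of 4 lists, marked by colour and shape. Crx, Prdm1, Nrl, Neurod4, Fabp7, Gnb3 and Rom1 lie in the upper right, and most G2/M genes lie left of 0 in WT cells and above 0 in N1-CKO cells.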

How the data were processed

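Gene expression was measured in 26 retinal cells, 1 cell per Affymetrix array. Values are linear intensity signals, as deposited, made with MAS5 per the submitters' processing notes; the sources used here do not give its version or settings. Trimmed means of 500.0 on every array (2% trimmed at each end) show a common scaling by the authors. Each table column was matched to a cell by its sample label, and classes were made only from the single Otx2 probe set.

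The array's 45101 probe sets, 64 of them controls, were named from GEO's platform annotation, with 34945 assigned to 1 gene, 932 to several and 9160 to none; 34741 matched the RefSeq gene table by Entrez ID and 0 symbols changed. This gave 18193 genes, each read from its brightest probe set by mean log2 signal across the 26 cells. Signals were raised to a floor of 25 before log2. Array number and amplification noise limit the precision. Bounds ("at least") set a class mean against the thresholds of arrays where the gene was not detected. Labels naming no animal, the comparison has no test, and cells serve only to describe spread.

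Members and gene lists (20 lists, 361 genes, 336 measured) were chosen with earlier results of these data known. Genes were named by rule: the 12 largest differences each way, over genes found in 4 or more WT cells whose share of detected cells differed in the same direction; photoreceptor factors detected in at least 2 WT cells; and up to 4 members of each other list, largest first, detected in at least 2. Other genes named from the lists, such as Rbp3, Unc119, Mki67 and Ccnd1, were chosen after their values were seen. Other probe sets of the named genes were compared: of 93 in 46 genes, 34 in 19 genes had the opposite sign, 28 of them detected in no WT cell and the others in at most 5.

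Alternatives changed the floor, probe set rule, scaling, Otx2 threshold and cells used. The calculation was run on shuffled values with a known shift added, which checks the arithmetic only. Python 3.11.15, numpy 2.4.6, pandas 2.3.3, scipy 1.17.1 and matplotlib 3.10.9 were used.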

Additional observations from a re-analysis of the deposited data

Results flagged for a closer look

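In 40 of 188 groups of 6 or 7 cells tested, 1 cell lay farther from the rest of its class than Dixon's 95% limit allows; chance flags about 1 group in 20 of normally distributed values, and where the other cells lie at the floor a small departure is enough. Values are log2 signals, and 4.64 is the floor. They were not weighed further.

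Otx2-positive cell 3 was far above the other Otx2-positive cells for the cyclin genes Ccnb2 (13.15, others 4.64 to 6.36) and Ccnf (12.94, others 4.64 to 7.12), for the mitotic phosphatase gene Cdc25c (10.37, others at 4.64), for Armcx4 (12.85), for the synaptic adhesion gene Nlgn2 (12.77) and for Nudt5 (7.62). It was far below them for Neurod4 (7.32, others 13.63 to 16.08) and Grina (5.16, others 12.59 to 15.93). Cell 6 was high for Kif5c (13.29) and low for Notch1 (9.58, others 12.84 to 14.55). Cell 9 was low for Pcna (7.23, others 13.46 to 14.79), and cell 13 for Btg2 (8.04, others 12.28 to 15.43). Cell 12 was high for the T-box gene Eomes (11.96) and for Tmed7 (7.72).

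Otx2-negative cell 7 stood apart most often. Its mean over the G2/M list was 5.58, against 11.27 to 12.97 in the other Otx2-negative cells. It was at 4.64 for Aspm, Ccnb2, Cdkn2d, Kdr and Dbi, of which the other Otx2-negative cells had 10.19 or more. It was the highest for Chgb (13.59, others 4.64 to 6.92), Insm2 (6.37) and, just above the floor, Mxd4 (4.66). Otx2-negative cell 8, the only one of the high 18S set, was at 4.64 for Fgf15, Zfp36l2 and Mcm7, at 5.41 for Fut8 and at 9.76 for Glul. It was the highest for Tm2d3 (7.79), and its bipolar list mean was 6.06, against 5.11 to 5.39.

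Otx2-negative cell 4 was the highest for Mcm2 (12.37, others at 4.64), Gap43 (12.24), Nefm (11.44) and H2-Ke6 (4.94). Cell 1 was the highest for Tmem176b (11.85), Gnb3 (10.17, others 4.64 to 6.30) and Calb2 (4.78). Cell 2 was the highest for Pnkd (12.07) and Ube3a (7.93), and cell 5 the lowest for Nudt5 (5.35, others 10.66 to 12.95).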

How the results depend on the processing

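No paired analysis was possible because the classes lie within WT and cell numbers only name cells. Against 272 genes higher and 363 lower by 3, the counts were 85 and 155 with a floor of 100, 1703 and 495 with a floor of 1, 143 and 143 when a gene's probe sets were averaged, 606 and 1142 with medians over cells, and 179 and 418 after quantile normalization. They were 424 and 336 with the 80th percentile as the Otx2 limit (9 against 4 cells), 300 and 658 with the 95th (5 against 8), 1576 and 1436 in the high 18S set (4 against 1), 660 and 571 in the low set (3 against 5), 312 and 698 with Gapdh ratios of at most 3 (6 against 5), and 173 and 273 among the 3809 genes detected in at least 4 WT cells. Chosen after seeing the data, centring on the median of all genes gave 147 and 668, and leaving out cells 1, 3 and 6 gave 488 and 666. The higher share of these calls was 42.8% as reported, 77.5% with a floor of 1 and 18% when centred. Leaving out 1 cell gave 259 to 388 higher and 345 to 540 lower.

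The spread between cells was taken as the larger class SD of a list's mean log2 signal. List medians moved by more than this in 20 of 210 pairs of list and setting. They did so in 1 pair when a single cell was left out. With a floor of 1 they were 2.30 for photoreceptor factors, 2.28 for rod, 2.52 for cone, 1.24 for bipolar, 1.86 for ganglion and 0.053 for cell cycle exit genes. Other settings made the photoreceptor, rod and cone medians smaller. They were 0.96, 0.34 and 0.39 with a floor of 100, against 0.11 for all genes. After quantile normalization they were 1.15, 0.48 and 0.51, against 0.027 for all genes. When centred they were 0.94, 0.45 and 0.74. Over members detected in at least 2 WT cells they were 2.91 for photoreceptor factors, 4.62 for the Otx family (Crx alone), 3.13 for rod, 3.27 for cone, -1.10 for amacrine and 1.86 for ganglion genes. This filter keeps members that passed it through 1 class alone, such as Rom1, Tulp1, Sag and Gngt2, which enlarges the medians. The median of all genes was not computed under the same filter, so no conclusion is drawn from these values. In the high 18S set the list medians were 2.44 for photoreceptor factors and -0.74 for proneural genes. The exit list, at -0.62, was 0.62 in the high and 0.027 in the low 18S set, 0.27 when probe sets were averaged, -0.12 with the 95th percentile, -1.13 when centred, and -0.59 to -0.13 without 1 cell. Bipolar genes were at -0.011 after quantile normalization.

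Of 79 named genes, 49 had a difference of at least 3 either way, and of these Fgf15 (3.38), Fut8 (0.026), Mcm7 (3.45) and Zfp36l2 (1.37) changed sign, all in the high 18S set, whose Otx2-negative side is cell 8. Among the 30 smaller differences, 19 changed sign under at least 1 setting. The causes were not tested. Crx stayed between 3.26 and 6.69, Nrl between 5.06 and 7.62, Prdm1 between 3.15 and 8.44 and Ccnb2 between -9.37 and -3.47 under these settings. Signals near the floor limit what can be compared.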

Other observations

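Genes detected in at least 4 Otx2-positive and no Otx2-negative WT cell numbered 65, or 0.357% of all genes, and some were chosen here after their values were seen. Cplx3, a complexin of ribbon synapses, had signals of 6.62 to 54056 (median 2574) in Otx2-positive cells and of 3.64 to 1371 (median 37.9) in Otx2-negative cells, and was detected in 5 and 0 cells (difference 5.16). In N1-CKO cells it was detected in 6 of 11 Otx2-positive and 0 of 2 Otx2-negative cells (4.62). Ankrd33b, a relative of the photoreceptor gene Ankrd33, was detected in 5 and 0 WT cells (3.98, but 0.81 within the low 18S set) and in 9 and 0 N1-CKO cells (7.98). Grik3, a kainate receptor subunit, was detected in 5 and 0 WT cells (4.53) and in 5 and 0 N1-CKO cells (4.09).

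Genes detected in no Otx2-positive and at least 4 Otx2-negative WT cells numbered 35, or 0.192% of all genes. Some were chosen here after their values were seen. Pttg1, which encodes securin, had signals of 3.50 to 264 (median 65.5) in Otx2-positive cells and of 16.2 to 17825 (median 8665) in Otx2-negative cells (difference -5.07). Cip2a, an inhibitor of a phosphatase, was detected in 0 and 5 cells (-4.73), and Bora, an activator of Aurora A kinase, in 0 and 4 cells (-4.23). Haus3, a spindle protein, was detected in 0 and 4 cells (-5.30), and Dusp6, a phosphatase induced by ERK signalling, in 0 and 4 (-3.68). In N1-CKO cells Haus3 was lower as well, at -7.12, while Pttg1 and Dusp6 were higher in Otx2-positive cells, at 2.78 and 2.89.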
